A study of Mus musculus with 6 samples.

Results

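Of the 17418 genes counted in single cells of the mouse cortex on postnatal day 5 (P5), 5 are described here: *Fmr1*, the gene that the knockout targets, its paralogs *Fxr1* and *Fxr2*, and *Cyfip1* and *Cyfip2*, whose proteins bind FMRP, the protein made from *Fmr1*. They were chosen by symbol and not by a measured value, although earlier results of these data were known. For each of them, the unique molecular identifiers (UMIs, which count each captured transcript once) were added up per mouse and cell type, with the types as the authors had named them. The samples were 3 WT mice (FVB.129P2-Pde6b+ Tyrc-ch/AntJ) and 3 *Fmr1*-KO mice (FVB.129P2-Pde6b+ Tyrc-ch Fmr1tm1Cgr/J), untreated, of both sexes, with 1 cortex per mouse. Both strains share the *Pde6b* and *Tyr* alleles in their names, and the knockout is constitutive, so that it is present in every cell type. Cells were encapsulated with InDrop, and the 2 batches here are the 2 versions of the barcoding beads given in the labels. Batch 1 (version 2) held WT 1, *Fmr1*-KO 1 and *Fmr1*-KO 2, and batch 2 (version 3.8) held WT 2, WT 3 and *Fmr1*-KO 3.

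FMRP and its paralogs FXR1P and FXR2P are RNA-binding proteins that associate with ribosomes and with each other, and FMRP is best known as a brake on the translation of synaptic mRNAs. CYFIP1 and CYFIP2 each sit in 2 kinds of complex. With FMRP, CYFIP1 can hold the cap-binding factor eIF4E away from the translation machinery, and in the WAVE complex either CYFIP joins a NCKAP, an ABI, a WASF and the small protein BRK1 to pass signals from the GTPase Rac to actin filaments. The comparison of genotypes asks whether the mRNAs of the paralogs and partners shift when *Fmr1* is lost, and the comparison of cell types asks where each is expressed.

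After the 1113 cells that the authors marked as doublets were left out, 17280 cells remained. Without doublets the mice had from 7909181 to 20629134 UMIs each, and no 2 mice agreed within counting noise (chi-square over its degrees of freedom, at least 8.05). Of 15463 distinct cell barcodes, 14.4% occurred in more than 1 of the 17 libraries and 341 in more than 1 mouse, and all were kept as separate cells. The type names held against markers of these types: of 41 markers of the 10 types tested, 32 were highest in their own type and none was at 0 in any mouse. The labels do not give the sex of each mouse. The sum of 4 Y-linked genes was 10.4 CPM (UMIs of a gene for each 1000000 UMIs of the same sum) in *Fmr1*-KO 2 and 203 to 244 CPM in the other 5 mice.

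The 5 genes lie on 4 chromosomes of mm10. *Fmr1* is on chromosome X from 68678541 to 68717963 on the plus strand. *Fxr1* is on chromosome 3 from 34019943 to 34070322 and *Cyfip1* on chromosome 7 from 55841745 to 55932602, both on the plus strand. Both paralog pairs have a member on chromosome 11, where *Fxr2* runs from 69632990 to 69653297 on the plus strand and *Cyfip2* from 46193850 to 46312859 on the minus strand. In the GENCODE annotation *Dnajc19* overlaps the 3′ end of *Fxr1*, and *Nipa2* that of *Cyfip1*, on the opposite strand in each case. Whether strand was used in counting is not given in the sources used here, so reads of these neighbours may have entered the counts. *Dnajc19* had 89.2 CPM over all cells, and *Nipa2* from 32.7 CPM in interneurons to 86.6 CPM in microglia.

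The allele Fmr1tm1Cgr disrupts exon 5 of *Fmr1* with an inserted cassette. This coding exon (chrX:68695489-68695637, plus strand, exon 5 of 17) is printed to show where the knockout acts on the transcript:
Fmr1 exon 5: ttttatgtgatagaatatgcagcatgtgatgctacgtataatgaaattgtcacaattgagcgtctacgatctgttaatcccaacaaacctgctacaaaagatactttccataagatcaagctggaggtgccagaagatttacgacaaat
It is 149 bases long and ends 3765 bases before the 3′ end of the transcript. InDrop counts transcripts by their 3′ ends, so the UMIs measure how much *Fmr1* mRNA was present and do not test the disruption itself.

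Paralogs could share reads, so the coding transcripts were compared. The longest run of bases shared within each pair of paralogs is printed in capitals with 12 bases on each side, because it shows how short the identical stretches are:
Fxr1, shared with Fxr2: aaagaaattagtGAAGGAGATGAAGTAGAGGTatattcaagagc
Fxr2, shared with Fxr1: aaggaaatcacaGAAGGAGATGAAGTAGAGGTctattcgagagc
Cyfip1, shared with Cyfip2: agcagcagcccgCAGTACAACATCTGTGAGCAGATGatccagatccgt
Cyfip2, shared with Cyfip1: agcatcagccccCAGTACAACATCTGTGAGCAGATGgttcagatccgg
Fmr1, shared with Fxr1: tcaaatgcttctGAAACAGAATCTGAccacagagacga
Fxr1, shared with Fmr1: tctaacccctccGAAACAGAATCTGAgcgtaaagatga
Fmr1, shared with Fxr2: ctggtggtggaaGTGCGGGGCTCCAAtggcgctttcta
Fxr2, shared with Fmr1: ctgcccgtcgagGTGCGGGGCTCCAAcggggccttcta
The run was 20 bases for *Fxr1* and *Fxr2*, 24 bases for *Cyfip1* and *Cyfip2*, and 14 bases for *Fmr1* with either paralog. No stretch of 25 bases was shared between any 2 of the 5 genes, neither in the last 1000 bases nor elsewhere in their coding transcripts.

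*Fmr1* UMIs were counted in each of the 10 types in every WT mouse. Free RNA in the droplets adds UMIs to cells of any type and was not estimated here, so a low level is not by itself expression by that type. Over all cells it had 655, 858 and 1495 UMIs in WT 1, WT 2 and WT 3 and 136, 164 and 224 UMIs in *Fmr1*-KO 1, *Fmr1*-KO 2 and *Fmr1*-KO 3. This was 68.4, 74.1 and 72.5 CPM in the WT mice and 17.2, 19.9 and 16.1 CPM in the *Fmr1*-KO mice. The genotypes did not overlap, and the *Fmr1*-KO mean was 24.8% of the WT mean. The 8 WT libraries ranged from 61.6 to 81.5 CPM and the 9 *Fmr1*-KO libraries from 15.0 to 22.2 CPM, so each library went with the genotype of its label. The log2 fold change was -2.05 (SE 0.11, 95% interval -2.31 to -1.79, n = 3 per genotype), with an FDR of 0.0066 from edgeR's quasi-likelihood test with batch as a covariate. A call here needed an FDR under 0.01 and the minimum fold change of the study's methods, and by this rule *Fmr1* was the 1 gene called over all cells, 0.00705% of the 14189 tested. The FDR rose above 0.01 when any 1 mouse was left out, to between 0.033 and 0.10, with a log2 fold change from -2.20 to -1.90. In a sum over all cells, fewer cells of a type and less RNA per cell cannot be told apart, and the sums by type are given next.

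*Fmr1* was lower in every *Fmr1*-KO mouse than in any WT mouse in each type tested. The main astrocyte subtype, Astrocytes_1, had 82.3, 80.3 and 80.1 CPM in the WT mice and 17.7, 18.1 and 18.3 CPM in the *Fmr1*-KO mice. These were the tightest groups of any type, with -2.15 on the log2 scale (SE 0.12, edgeR FDR = 4.434e-05). OPC_1, the first subtype of oligodendrocyte precursors, had 72.8, 89.6 and 123 CPM in the WT mice and 28.1, 26.2 and 24.2 CPM in the *Fmr1*-KO mice. The WT mice spread more here, and WT 3 was far above the others (log2 fold change -1.79, SE 0.22, edgeR FDR = 0.0017). This call was lost without WT 3 (FDR = 0.026) and without *Fmr1*-KO 3 (FDR = 0.61). Astrocytes_1 and OPC_1 were the 2 of 11 types in which *Fmr1* was called. Calls made up 0.00833% of all genes tested in Astrocytes_1, 0.00972% in OPC_1 and 0.00617% of all 97273 gene tests in the 11 types.

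The *Fmr1*-KO mean ran from 11.2% to 39.4% of the WT mean across the 10 types, and the neuronal types did not stand together. All neurons together had 59.0, 70.6 and 67.4 CPM in the WT mice and 15.8, 24.5 and 24.9 CPM in the *Fmr1*-KO mice. The groups were well apart, with -1.52 on the log2 scale (SE 0.18, edgeR FDR = 0.055), and the *Fmr1*-KO mean was 33.1% of the WT mean. Excitatory neurons had 55.5, 69.4 and 67.0 CPM in WT and 18.4, 33.9 and 23.3 CPM in *Fmr1*-KO mice, and the *Fmr1*-KO mean was 39.4% of the WT mean, the highest share of the 10 types. Interneurons had 63.3, 80.9 and 68.6 CPM in WT and 10.9, 23.0 and 23.4 CPM in *Fmr1*-KO mice, or 26.9% by the means, below OPC_1 (27.5%), endothelial cells (28.3%), microglia (31.3%) and oligodendrocytes (34.1%). Ganglionic cells, progenitors of the ganglionic eminence, had 60.5, 74.1 and 83.3 CPM in WT and 25.6, 12.7 and 31.7 CPM in *Fmr1*-KO mice, or 32.1%. At the other end were pericytes, the mural cells of capillaries, with 56.5, 64.9 and 59.7 CPM in WT and 14.3, 0 and 5.94 CPM in *Fmr1*-KO mice, or 11.2%. That low share rests on 3, 0 and 7 UMIs in the *Fmr1*-KO mice. A count of 0 leaves room for up to 3 UMIs, an upper limit at 95% confidence with no lower limit set. It covers counting error only. The shares above take no account of batch. With batch in the fit, the log2 fold change was -1.80 in interneurons, -1.79 in OPC_1 and -1.56 in microglia. It was -1.99 in endothelial cells and -2.01 in oligodendrocytes, so that interneurons were no longer below these 2 types. Whether the genotype difference of *Fmr1* varied between the 10 types was tested in a single model that kept each mouse as a block, and no variation passed the threshold (edgeR F test, FDR = 1).

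The remaining types had few *Fmr1* UMIs and the same direction, without a call. Microglia, the resident macrophages of the brain, had 44.9, 58.3 and 60.7 CPM in WT and 10.3, 20.5 and 20.3 CPM in *Fmr1*-KO mice. Endothelial cells had the lowest WT level, 24.0, 41.4 and 29.8 CPM, and 9.84, 11.95 and 5.12 CPM in *Fmr1*-KO mice. Oligodendrocytes had 31.1, 46.5 and 62.0 CPM in WT and 14.6, 25.7 and 7.26 CPM in *Fmr1*-KO mice, from 3 to 24 UMIs and 2 to 4 UMIs per mouse. Over the 11 types, the *Fmr1*-KO mice all lay below the WT mice in 11 of 11, against 4.04% of all gene tests. Each of the 11 unadjusted p-values was under 0.05, which held for 5.32% of all gene tests, and the sign was the same within both batches. In 3 of the 11 types the FDR was under 0.05, namely Astrocytes_1, OPC_1 and Astrocytes_2. In Astrocytes_2 the WT mean was 63.9 CPM and the *Fmr1*-KO mean 17.2 CPM, with a log2 fold change of -1.94 (edgeR FDR = 0.040). The plot of *Fmr1*, *Fxr1* and *Fxr2* by mouse shows the separation of the genotypes for the first gene only.

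**Figure D1:**
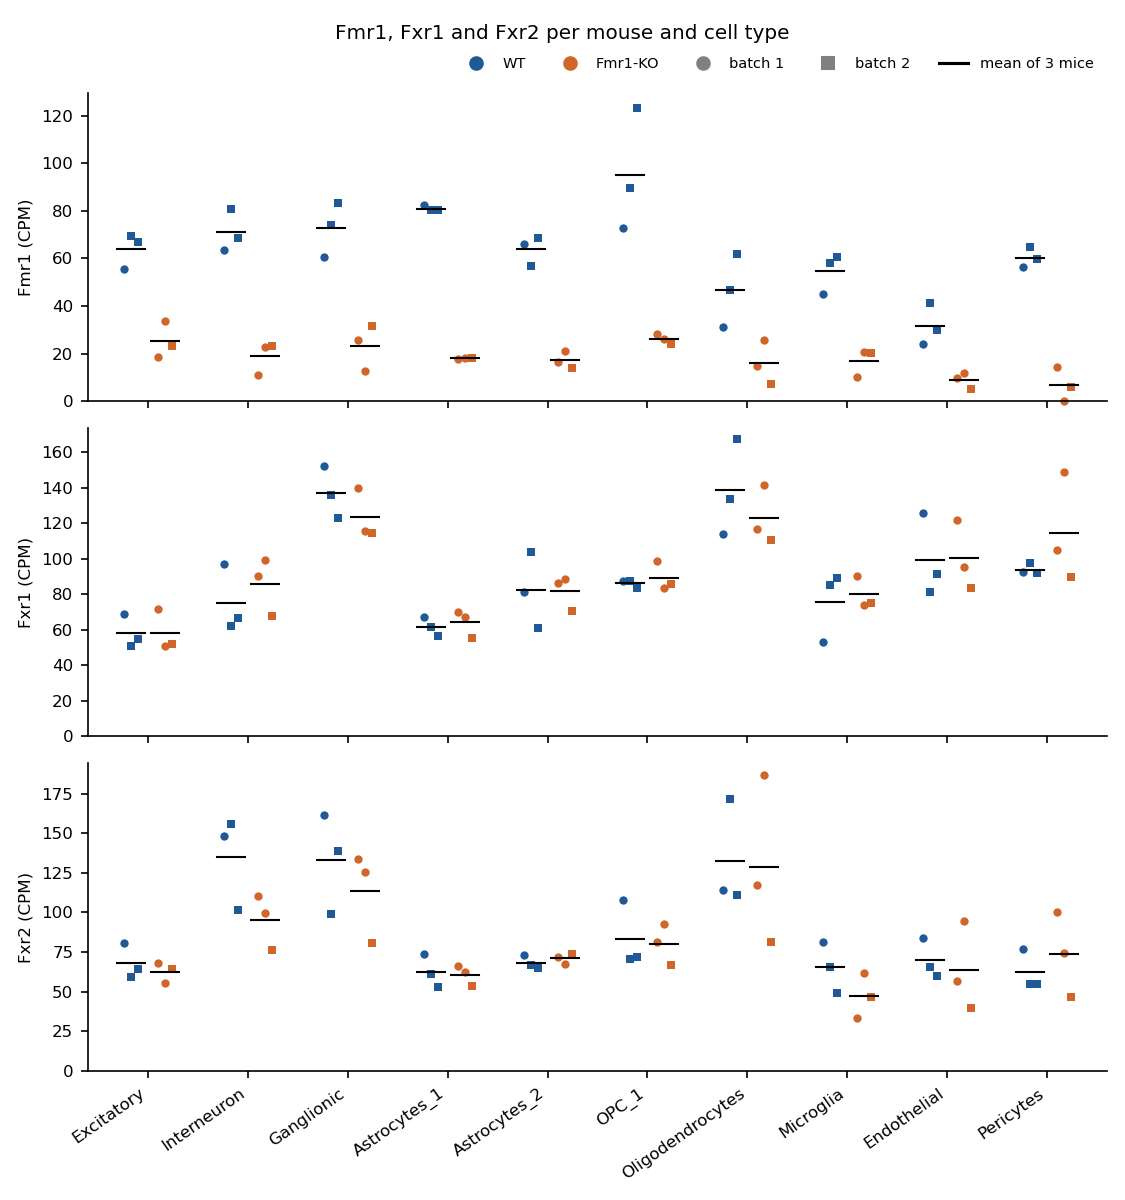
CPM of *Fmr1*, *Fxr1* and *Fxr2* (vertical axes) in 10 cell types (horizontal axis), 1 point per mouse, with the genotype as colour, the batch as shape and a line at the mean of 3 mice. In the top panel the points of the *Fmr1*-KO mice lie below those of the WT mice in every type, and in the 2 lower panels the genotypes overlap in every type.

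Among the WT mice, the order of *Fmr1* levels across types was shallow. OPC_1 led with 95.2 ± 25.7 CPM (SD, n = 3), although not without WT 3, followed by Astrocytes_1 with 80.9 ± 1.19, ganglionic cells with 72.6 ± 11.5 and interneurons with 70.9 ± 9.00. Excitatory neurons had 64.0 ± 7.44, Astrocytes_2 63.9 ± 6.04, pericytes 60.4 ± 4.25, microglia 54.6 ± 8.49, oligodendrocytes 46.5 ± 15.4 and endothelial cells 31.7 ± 8.88 CPM. The highest mean was 3.00 times the lowest. Of the 9 neighbours in this order, 2 were apart by more than 1 SD of their difference within a mouse, interneurons above excitatory neurons and oligodendrocytes above endothelial cells. Because the types are clusters of these same counts, no test was made between them. CPM are not scaled by gene length, and 3′ UMI counts do not grow with length, but capture can differ between genes.

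*Fxr1*, whose protein is a partner of FMRP and is also abundant in muscle, did not separate the genotypes. Over all cells it had 83.4, 70.8 and 69.6 CPM in the WT mice and 89.8, 85.0 and 74.0 CPM in the *Fmr1*-KO mice. The ranges overlapped, and in both genotypes the batch 1 mice were the higher ones. The log2 fold change was 0.05 (95% interval -0.14 to 0.24, edgeR FDR = 0.85). By type it ran from -0.25 in oligodendrocytes to 0.14 in pericytes, and in each of the 11 types the 95% interval held 0 and stayed within -1 and 1. In Astrocytes_1, the type with the most UMIs, the interval was the narrowest, from -0.25 to 0.22.

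*Fxr1* was broadly expressed, and among the 10 types its highest levels were in oligodendrocytes and ganglionic cells. Over the 6 mice, oligodendrocytes had 131 ± 21.7 CPM (SD) and ganglionic cells 130 ± 14.9 CPM, and neither was above the other beyond the spread. Pericytes had 104 ± 22.5, endothelial cells 99.98 ± 19.4, OPC_1 87.7 ± 5.63, Astrocytes_2 82.0 ± 14.9, interneurons 80.6 ± 16.8 and microglia 77.8 ± 13.96 CPM. Astrocytes_1 with 63.0 ± 6.22 CPM and excitatory neurons with 58.3 ± 9.58 CPM came last. No neighbours of the 9 were apart by more than 1 SD, and the highest mean was 2.24 times the lowest. Among the subtypes too small to test, ependymal cells, which line the ventricles, had 161 ± 36.3 CPM (n = 6) and the cluster the files name OPC_2, where the neural stem cell markers *Dll1* and *Dbx2* were highest, 154 ± 56.2 CPM (n = 5 mice with at least 10 cells). The other stem cell marker looked at, *Btg2*, was highest in microglia, and OPC_2 came in place 4.

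*Fxr2*, the other paralog, had a log2 fold change below 0 in 10 of 11 types, without a call in any. These types come from the same 6 mice, and all neurons include 3 of the others. Within both batches the sign was the same in 7 of the 11. Without regard to batch, the *Fmr1*-KO mean was 102% of the WT mean in neurons and 118% in pericytes. How many of all genes lean 1 way as often was not counted. Over all cells it had 91.1, 68.1 and 59.96 CPM in the WT mice and 77.4, 81.1 and 57.0 CPM in the *Fmr1*-KO mice, so that the ranges overlapped. Again the batch 1 mice were the highest of their genotype, and the log2 fold change with batch in the model was -0.20 (95% interval -0.40 to -0.01, edgeR FDR = 0.56). Its unadjusted p was under 0.05, as it was for 8.82% of all genes in the same fit. The difference within batches was -0.20 in batch 1 and -0.17 in batch 2, and without the batch term it was -0.07.

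The lowest log2 fold change of *Fxr2* was in interneurons. There *Fxr2* had 148, 156 and 102 CPM in the WT mice and 111, 99.5 and 76.5 CPM in the *Fmr1*-KO mice. WT 3 lay within the *Fmr1*-KO range and the other two WT mice above it. The log2 fold change was -0.53 (95% interval -0.96 to -0.09, edgeR FDR = 0.9998), with an unadjusted p under 0.05, and 4.25% of all genes in interneurons had one. After each cell was thinned to 700 UMIs, the value in interneurons was -0.06. Microglia followed with -0.51 (95% interval -1.21 to 0.19) and ganglionic cells with -0.41 (95% interval -0.84 to 0.02), and both intervals held 0.

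Across types *Fxr2* was highest in oligodendrocytes and in the interneuron lineage. It had 130 ± 40.1 CPM (SD over 6 mice) in oligodendrocytes, 123 ± 29.1 in ganglionic cells and 115 ± 30.5 in interneurons. These were not apart beyond their spread, and interneurons became the highest type with the mean of each cell's own CPM or with the deposited size factors. OPC_1 had 81.9 ± 15.8 CPM, below interneurons in 6 of 6 mice, and this was the 1 of 9 neighbour pairs apart by more than 1 SD. The other types lay between 56.5 ± 16.8 CPM in microglia and 69.7 ± 3.85 CPM in Astrocytes_2. Interneurons had more *Fxr2* than *Fxr1* UMIs in 5 of 6 mice and as many of each in *Fmr1*-KO 2. The log2 ratio in interneurons was 0.83 ± 0.39 in WT (0.60 to 1.28) and 0.15 ± 0.15 in *Fmr1*-KO mice (0 to 0.29). These ranges did not overlap, and neither did those of 7.36% of single genes in interneurons. The share over ratios of other gene pairs was not counted. The highest ratio, in WT 2, rests on few counts, with 48 UMIs of *Fmr1*, *Fxr1* and *Fxr2* together. This ratio was not tested. In endothelial cells and pericytes *Fxr2* had fewer UMIs than *Fxr1* in every mouse, with ratios of -0.61 ± 0.42 and -0.63 ± 0.38 over both genotypes (SD, n = 6), which overlapped.

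The summed level of the paralogs overlapped between the genotypes. In batch 1, *Fxr1* and *Fxr2* together had 175 CPM over all cells in WT 1 and 167 and 166 CPM in *Fmr1*-KO 1 and *Fmr1*-KO 2. In batch 2 they had 139 and 129.6 CPM in WT 2 and WT 3 and 131 CPM in *Fmr1*-KO 3. The *Fmr1*-KO mice were thus below WT in batch 1 and between the WT mice in batch 2, whereas the means without regard to batch, 148 ± 23.7 CPM in WT and 155 ± 20.6 CPM in *Fmr1*-KO mice (SD, n = 3 each), had the opposite order. *Fmr1* made up 32.9% ± 4.2 of the UMIs of the 3 genes in WT and 10.3% ± 0.88 in *Fmr1*-KO mice. The 3 genes together had 219 ± 21.1 CPM in WT and 172 ± 22.0 CPM in *Fmr1*-KO mice. By the 95% intervals of the fits with batch, which are not adjusted for the number of genes, the change over all cells lay between -9.0% and 17.9% for *Fxr1* and between -24.0% and -0.95% for *Fxr2*.

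**Figure D2:**
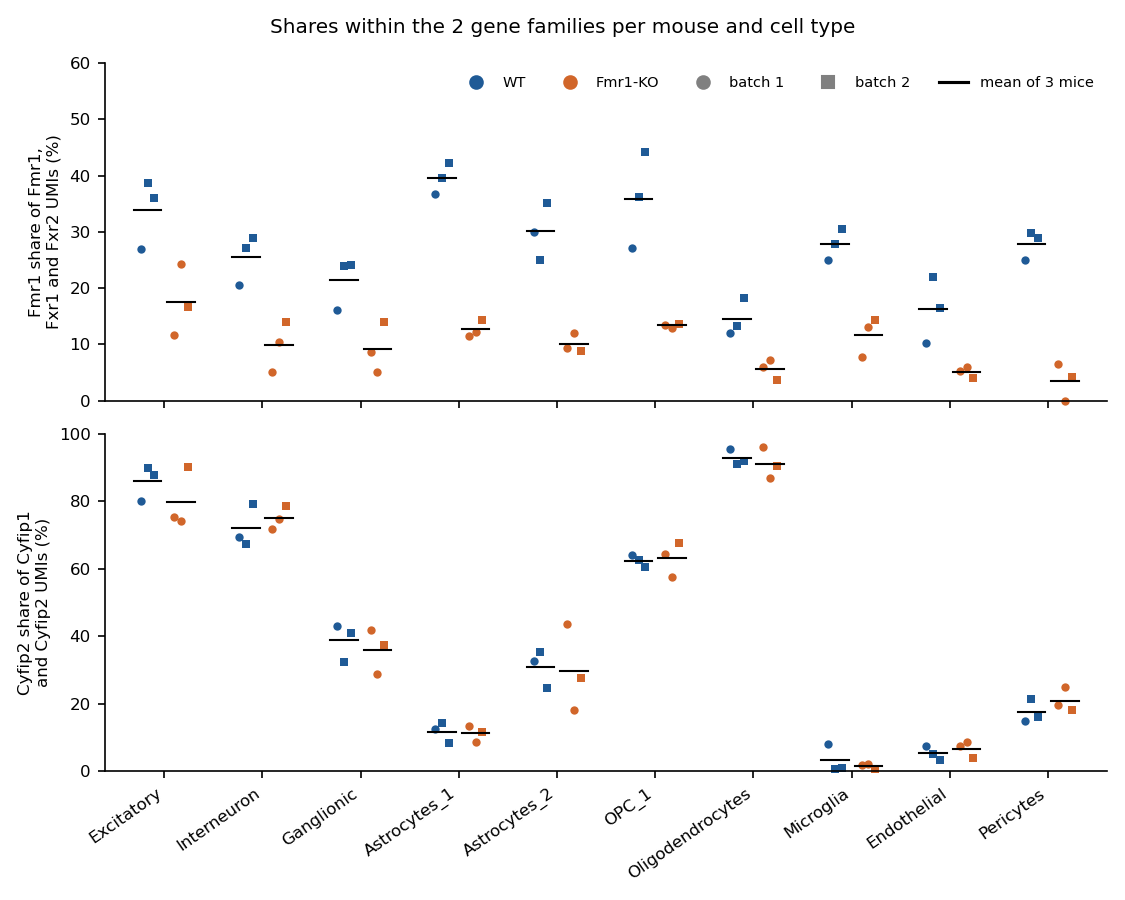
Share of *Fmr1* among the UMIs of *Fmr1*, *Fxr1* and *Fxr2* (upper panel, percent) and share of *Cyfip2* among those of *Cyfip1* and *Cyfip2* (lower panel, percent) in 10 cell types, 1 point per mouse, with colour for genotype, shape for batch and a line at the mean of 3 mice. The *Fmr1* share is lower in *Fmr1*-KO mice in every type, whereas the *Cyfip2* share runs from 2.34% in microglia to 91.9% in oligodendrocytes and the genotypes overlap in each type.

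*Cyfip1* was highest in microglia. Microglia had 706, 731 and 684 CPM in the WT mice and 838, 759 and 733 CPM in the *Fmr1*-KO mice. Every mouse had its highest *Cyfip1* level in microglia, with a mean of 742 ± 53.7 CPM (SD, n = 6). Astrocytes_1 came next with 209 ± 6.39 CPM, 28.1% of the microglial mean, and Astrocytes_2 had 175 ± 27.9, endothelial cells 165 ± 29.0, OPC_1 145 ± 19.4, pericytes 117 ± 23.1 and oligodendrocytes 113 ± 54.7 CPM. The neuronal types were the 3 lowest, ganglionic cells with 97.4 ± 13.2, interneurons with 74.4 ± 11.3 and excitatory neurons with 70.6 ± 25.6 CPM. The highest mean was 10.5 times the lowest. Apart by more than 1 SD were microglia over Astrocytes_1, Astrocytes_1 over Astrocytes_2 and ganglionic cells over interneurons.

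*Cyfip1* did not pass the test in any type. Over all cells it had 168, 180 and 188 CPM in the WT mice and 189, 179 and 167 CPM in the *Fmr1*-KO mice, and the log2 fold change was -0.03 (95% interval -0.26 to 0.20, edgeR FDR = 0.94). In Astrocytes_1 the interval was from -0.19 to 0.19, the narrowest of *Cyfip1* in any type. The mice did not overlap between genotypes in 2 types, in opposite directions. In microglia every *Fmr1*-KO mouse was above every WT mouse, with a log2 fold change of 0.12 (95% interval -0.25 to 0.49, edgeR FDR = 0.997). In interneurons the WT mice had 81.4, 93.3 and 74.4 CPM and the *Fmr1*-KO mice 64.1, 65.03 and 68.0 CPM, with a log2 fold change of -0.28 (95% interval -0.76 to 0.20, edgeR FDR = 0.9998). The groups also did not overlap for 7.7% of all genes in microglia and 7.36% in interneurons.

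*Cyfip2* had the steepest pattern of the 5 genes, and its summit was in oligodendrocytes. These had 1080, 1329 and 1242 CPM in WT and 1229, 1273 and 1319 CPM in *Fmr1*-KO mice, or 1245 ± 90.6 CPM (SD, n = 6), with the highest level of every mouse. Excitatory neurons had 354 ± 63.4 CPM, OPC_1 243 ± 10.8 and interneurons 211 ± 45.5. A steep drop followed, to 75.5 ± 21.5 CPM in Astrocytes_2, 58.4 ± 12.3 in ganglionic cells, 27.0 ± 4.30 in pericytes and 26.8 ± 5.90 in Astrocytes_1. Microglia had 4.85 and 6.19 CPM in WT 2 and WT 3, 15.5, 16.4 and 4.07 CPM in the *Fmr1*-KO mice, and 61.2 CPM in WT 1, from 15 UMIs. The other microglial values rest on 2 to 6 UMIs. Endothelial cells had 11.01 ± 5.48 CPM, and the 2 types shared the lowest place. The microglial mean was above the endothelial one (18.05 CPM) with WT 1 and below it without (9.41 against 10.2 CPM), and microglia were above endothelial cells in 2 of 6 mice. The oligodendrocyte mean was 113 times the endothelial mean.

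In the *Cyfip2* order 4 steps were larger than 1 SD and held in 6 of 6 mice, namely oligodendrocytes over excitatory neurons, excitatory neurons over OPC_1, interneurons over Astrocytes_2 and ganglionic cells over pericytes. The neuronal progenitors of the ganglionic eminence thus had less *Cyfip2* than interneurons or excitatory neurons in every mouse. Among small subtypes, Cajal-Retzius cells (CR), early neurons of the outermost cortical layer, had 283 ± 47.8 CPM (n = 5) and the SVZ subtype 227 ± 117 CPM (n = 4).

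**Figure D3:**
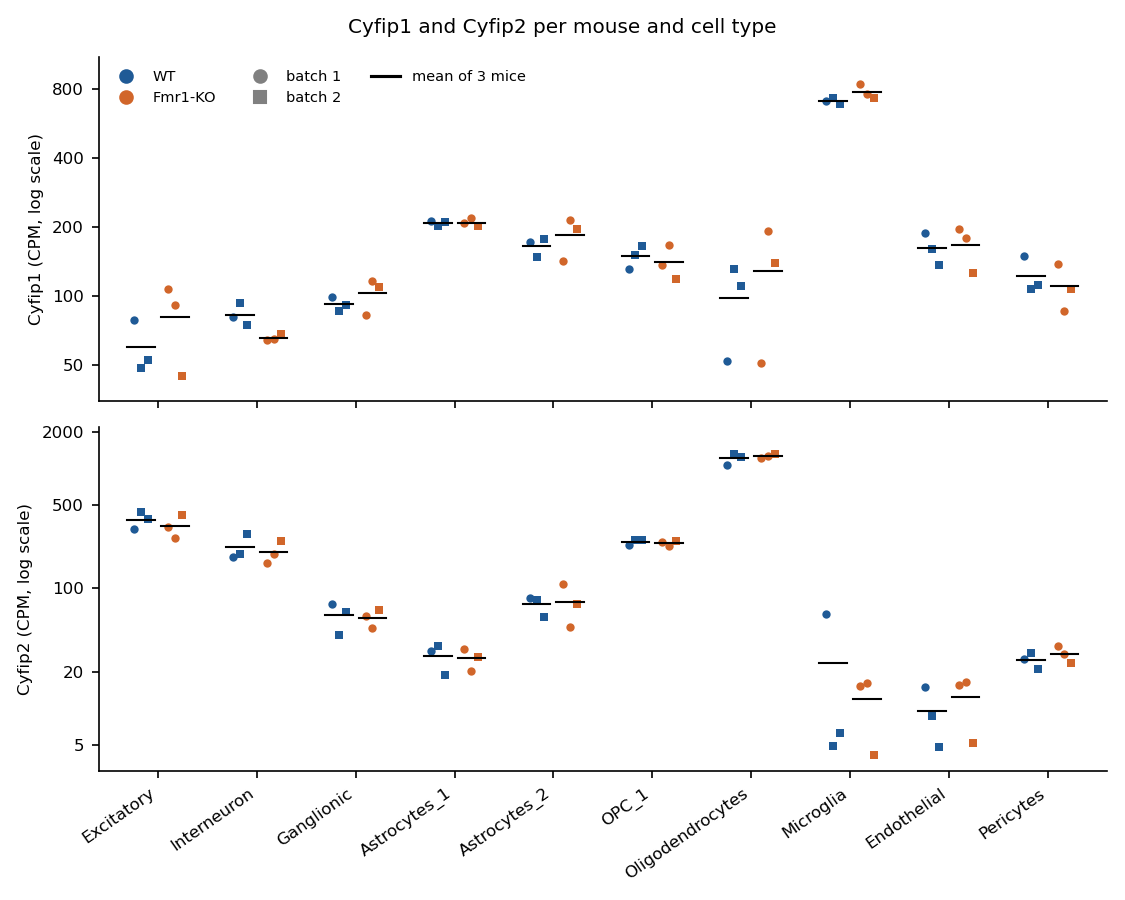
CPM of *Cyfip1* and *Cyfip2* (vertical axes, log scale) in 10 cell types (horizontal axis), 1 point per mouse, with colour for genotype, shape for batch and a line at the mean of 3 mice. *Cyfip1* peaks in microglia at 684 to 838 CPM and *Cyfip2* in oligodendrocytes at 1080 to 1329 CPM, and the genotypes overlap for both genes except for *Cyfip1* in microglia and interneurons.

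The 2 CYFIP genes led in different types. *Cyfip2* made up 91.9% ± 3.40 of their summed UMIs in oligodendrocytes, 82.9% ± 7.29 in excitatory neurons, 73.5% ± 4.84 in interneurons and 62.7% ± 3.43 in OPC_1 (SD, n = 6). *Cyfip1* was in the majority elsewhere, and the share of *Cyfip2* was 37.3% ± 5.72 in ganglionic cells, 30.3% ± 8.84 in Astrocytes_2, 19.1% ± 3.74 in pericytes, 11.4% ± 2.43 in Astrocytes_1, 5.95% ± 2.10 in endothelial cells and 2.34% ± 2.84 in microglia. Over all cells the share was 41.6% ± 5.10 in WT and 41.1% ± 4.58 in *Fmr1*-KO mice.

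*Cyfip2* likewise passed the test in none of the 10 types where it could be tested, and in microglia it had too few UMIs, 34 in all. Over all cells it had 125, 154 and 106 CPM in the WT mice and 116, 114 and 145 CPM in the *Fmr1*-KO mice, with a log2 fold change of 0.00 (95% interval -0.34 to 0.35, edgeR FDR = 0.995). The lowest log2 fold change of *Cyfip2* was in all neurons together. There the WT mice had 232, 367 and 337 CPM and the *Fmr1*-KO mice 199, 178 and 300 CPM, and *Fmr1*-KO 3 lay within the WT range. The log2 fold change was -0.28 (95% interval -0.51 to -0.05, edgeR FDR = 0.35). Its unadjusted p was under 0.05, like that of 11.7% of all genes in neurons. Within the subtypes it was -0.04 in excitatory neurons, -0.02 in interneurons and -0.15 in ganglionic cells, with each interval holding 0. The subtypes differ widely in *Cyfip2*, and the share of excitatory cells among the neurons was 56.8%, 75.3% and 49.5% in WT and 42.0%, 48.6% and 35.6% in *Fmr1*-KO mice. With the same number of cells of each of the 3 subtypes drawn from every mouse, the value in neurons was 0.04. This was a single random draw of 59 cells per subtype and mouse, without CR or SVZ cells. It held fewer cells than the full sums as well as another mix. Whether the mix of subtypes accounts for the value in neurons was not tested.

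For the 4 genes other than *Fmr1*, 0 of 43 tests by type were called, beside 0.00617% of all gene tests. An unadjusted p under 0.05 was reached in 2 of the 43, or 4.65%, beside 5.32% of all gene tests. The mice did not overlap between genotypes in 2 of 44 cases, beside 7.88%. All 43 estimates lay between -0.53 and 0.45, and 39 of the 43 intervals excluded a doubling as well as a halving. The 4 wider ones were *Fxr2* in microglia, *Cyfip1* in oligodendrocytes and *Cyfip2* in endothelial cells and pericytes. DESeq2 also called none of the 4 genes. The F test for a genotype difference that varies between types gave an FDR of 1 for each of the 4 genes (edgeR), and it called 0 of all 13893 genes (0%), of which 294 (2.12%) had an unadjusted p under 0.05.

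**Figure D4:**
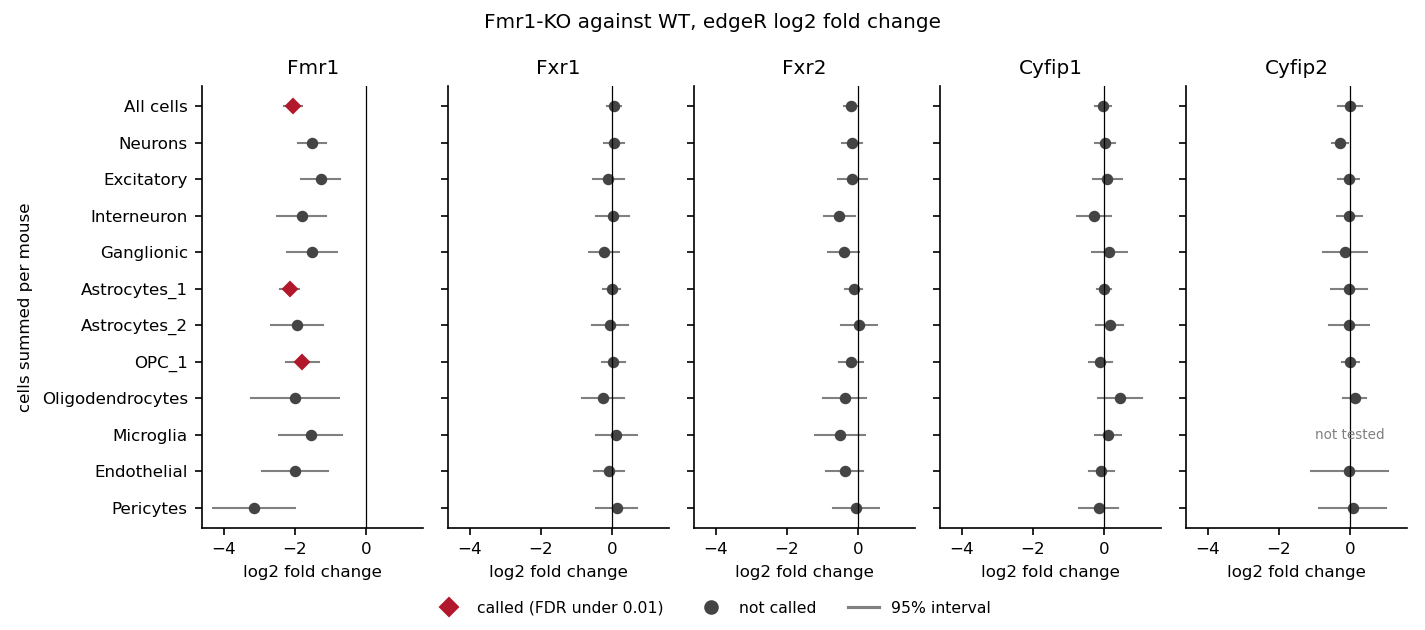
Log2 fold change of *Fmr1*-KO against WT (horizontal axis, edgeR with batch as a covariate) with its 95% interval for the 5 genes in all cells, all neurons and 10 types (vertical axis), with red diamonds for calls at FDR under 0.01. *Fmr1* lies between -3.15 and -1.28 with every interval below 0, and the other genes lie between -0.53 and 0.45.

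The genes with the most similar pattern were sought by Pearson's r of log2(CPM + 1), centred within each mouse, over sums of 10 types in 6 mice (60 sums, or 30 WT sums for *Fmr1*), among genes with a mean of at least 20 CPM. Sums of 1 mouse share its depth and batch, and these r are descriptions. *Cyfip2* was most like *Wasf1* (r = 0.95), which encodes a WASF subunit of the WAVE complex, followed by *Tmeff2* (0.94) and *Eid1* (0.92). *Cyfip1* was most like *Ctsd* (0.91) and *Hexa* (0.90), which encode lysosomal hydrolases, and *Mfsd1* (0.88), which encodes a lysosomal membrane protein. *Fxr1* was most like *Pcbp1* (0.81), *Zbed3* (0.79) and *Lima1* (0.78), and *Fxr2* most like *Vbp1* (0.78), *St18* (0.78) and *Arid4b* (0.77). *Fmr1* in WT was most like *Cbx5* (0.80), which encodes a heterochromatin protein, *Isoc1* (0.80) and *Sall2* (0.78). Between the members, r was -0.59 for *Cyfip1* and *Cyfip2*, 0.49 for *Fxr1* and *Fxr2*, 0.57 for *Fxr2* and *Cyfip2*, and -0.46 for *Fxr2* and *Cyfip1*.

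Several other subunits of the WAVE complex were highest in the same types as the CYFIP genes. They are named here after their levels had been seen. *Nckap1l*, which encodes the NCKAP subunit of blood cells, had 434 ± 129 CPM (SD, n = 6) in microglia and at most 7.75 CPM in any other type. *Abi3* had 110 ± 19.2 CPM in microglia and at most 8.46 CPM elsewhere, and *Wasf2* 120 ± 34.7 CPM in microglia, followed by 57.2 CPM in endothelial cells. Each of these was highest in microglia in 6 of 6 mice, as *Cyfip1* was. *Wasf1* had 376 ± 102 CPM in oligodendrocytes and 197 ± 58.4 CPM in excitatory neurons, the same first and second type as *Cyfip2*, and *Nckap1* had 317 ± 69.9 CPM in oligodendrocytes and 11.1 CPM in microglia, its lowest type. *Abi2* was highest in excitatory neurons with 355 ± 59.5 CPM. *Brk1*, the subunit with no alternative, was present everywhere, from 174 CPM in interneurons to 381 ± 60.4 CPM in microglia, and *Wasf3* reached at most 3.43 CPM in any type.

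**Figure D5:**
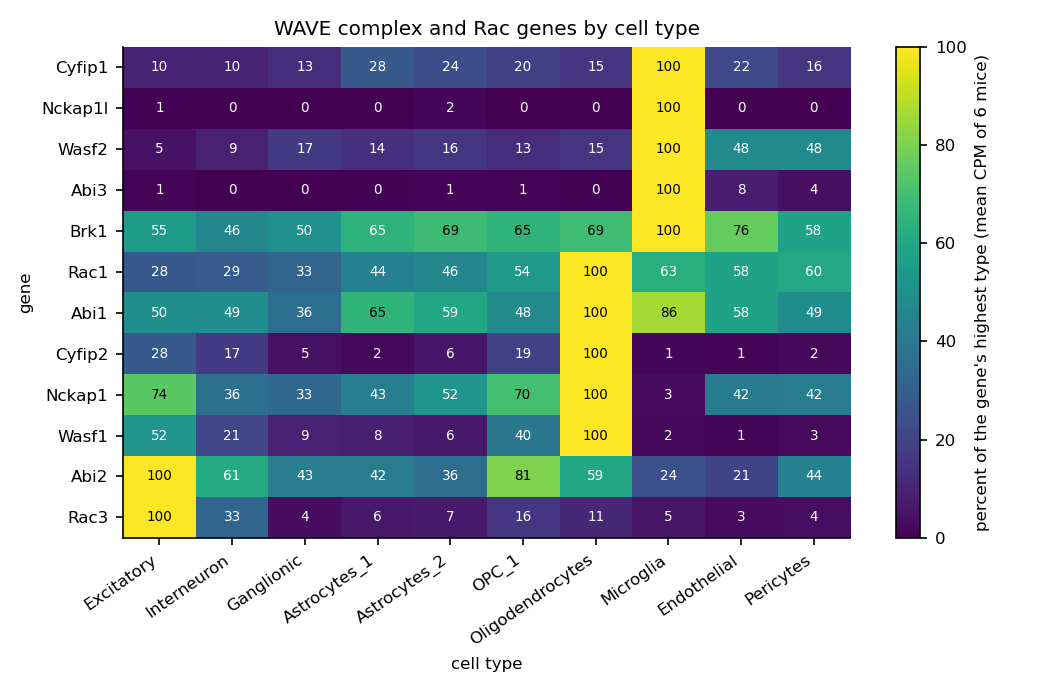
Mean CPM over 6 mice as a percent of the type in which the gene was highest (colour and printed number), for the CYFIP genes, other WAVE subunits and the Rac genes (rows) in 10 cell types (columns), without *Wasf3*. *Cyfip1*, *Nckap1l*, *Wasf2*, *Abi3* and *Brk1* are highest in microglia, *Cyfip2*, *Nckap1*, *Wasf1*, *Abi1* and *Rac1* in oligodendrocytes, and *Abi2* and *Rac3* in excitatory neurons.

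None of the partner genes was called between genotypes. The 3 lists held the WAVE complex with *Rac1* and *Rac3* (11 genes), cap-binding factors and their repressors (10 genes) and proteins that associate with FMRP in RNA granules or bind it (20 genes). Over the 11 types, 0 of 384 tests passed, beside 0.00617% of all gene tests, and 21 (5.47%) had an unadjusted p under 0.05, beside 5.32%. In neurons the median log2 fold change was -0.06 for the WAVE list, 0.07 for the cap-binding list and 0.02 for the FMRP partners, beside 0.00 for all genes. The WAVE list had 8 genes tested in neurons, 2 above 0 and 6 below, the cap-binding list 10, with 7 above and 3 below, and the FMRP partners 19, with 11 above and 8 below.

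Each list is represented by its most abundant gene and by the gene with the lowest p in neurons. *Rac1*, the GTPase that switches the WAVE complex on, had 615 CPM over all cells and a log2 fold change of -0.06 in neurons (edgeR FDR = 0.86). *Rac3*, its neuronal relative, had the lowest FDR of any listed gene, 0.19 in neurons, with a log2 fold change of -0.51 (SE 0.12, edgeR). It was highest in excitatory neurons with 415 ± 125 CPM and had 136 CPM in interneurons, and the log2 fold change was -0.08 in excitatory neurons, -0.59 in interneurons and -0.16 in neurons with an equal mix of subtypes. *Eif4g2*, a translation initiation factor, had 846 CPM over all cells and 0.06 in neurons, and *Eif4a1*, the helicase of the cap-binding complex, 0.23 (edgeR FDR = 0.41). *Ybx1*, an mRNA-packaging protein, had the highest level of any listed gene, 1220 CPM over all cells, and a log2 fold change of -0.03 in neurons. *Ranbp9*, whose protein binds FMRP, had 0.46 in neurons (SE 0.14, edgeR FDR = 0.28). These values in neurons moved with the setting. With an equal mix of subtypes *Ranbp9* had 0.14 and *Eif4a1* 0.19. With no batch term *Ranbp9* had 0.18, *Eif4a1* 0.05 and *Rac3* -0.95.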

How the data were processed

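UMI counts per gene and cell were deposited by the authors without normalization, after demultiplexing with bcl2fastq, alignment to mm10 with TopHat2 2.0.14 and 3′-end counting with ESAT, which left out reads with more than 1 position. The authors removed erythrocytes, part of the doublets and barcodes under 700 UMIs, although 53 cells with fewer remained. They deposited a subtype, a mouse and a size factor (a ratio from scran within each of their batches of libraries) for each cell. Files that name *Fmr1*-KO mice FX were matched to the labels by number. No column of values was left unmapped.

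Counts were summed per mouse and type, without doublets and without sums of under 10 cells. CPM are scaled to 1000000 UMIs of the same sum. Types that had 100 or more cells of each genotype were tested over genes with at least 50 UMIs, with edgeR 4.0.16 in R 4.3.3 (quasi-likelihood, TMM, batch as a covariate, Benjamini-Hochberg over all genes of the fit). Mice were the replicates, whereas the study's test took cells. The p-values therefore rest on 3 mice per genotype. Neurons were the excitatory, interneuron, ganglionic, CR and SVZ subtypes. The alternatives left out the batch term, took the replicate number as a block, left out TMM, or used DESeq2 1.42.0, 3 other filters, cells thinned to 700 UMIs, an equal mix of types, an FDR of 0.05, each mouse left out, a batch by type term and other scales for levels. Fits were tested on simulated data, with a set spread between mice that was not estimated from these data. Of genes changed by 1 on the log2 scale, calls recovered 60.6% in neurons, 65.8% in Astrocytes_1 and 28.6% in oligodendrocytes. At a change of 2 these were 98%, 97% and 96.5%. Among genes above a minimum mean count, the F test recovered 45.5% of those changed by 1 in the 3 neuron subtypes. Many changes of this size or smaller would therefore have been missed.

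The genes, lists and tests were chosen with earlier results of these data known. Genes named beyond the 5 are the most abundant and the lowest p in neurons of each list, the 3 most alike per gene, any list gene called (none), and WAVE subunits by level. Within-batch differences are log2 ratios of CPM + 0.5. Python 3.11.15, numpy 2.4.6, pandas 2.3.3, scipy 1.17.1 and matplotlib 3.10.9 were used. Gene models were those of GENCODE for mm10.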

Additional observations from a re-analysis of the deposited data

How the results depend on the processing

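*Fmr1* over all cells (log2 fold change -2.05) kept its direction but missed the FDR of 0.01 with no batch term (-2.07), with the replicate block (-2.07), with cells thinned to 700 UMIs (-1.74), with an equal mix of types (-1.74) and without single mice (-2.20 to -1.90). It was not tested under the filter of a UMI in 15% of cells. The 2 types in which a member was called became 1 with no batch term, 1 with the replicate block, 1 after thinning, 7 with no filter on low counts, and 1 to 2 without single mice, and Astrocytes_1 was called each time. With no filter the fit also called 155 genes in neurons, against 0 with the filter. In OPC_1 the FDR was 0.14 with no batch term and 0.99 after thinning. The cause was not tested, except that thinning leaves fewer UMIs and leaving out a mouse fewer samples. Same-numbered mice did not pair (r = 0.39, -0.50 and 0.47 for numbers 1, 2 and 3), and number 2 spans both batches. The replicate block changed no other call. For the 4 other genes no setting gave a call: of 688 values by setting, 86 changed sign, each without a call. The partner lists had 0 calls in every setting. The F test over types called none of the 5 genes in any setting, and over all genes it called 5 with no filter, 1 each after thinning, with a batch by type term, without WT 1 and without WT 2, and otherwise 0. With the other scales for levels the highest type changed for *Fxr2*. Without single mice it changed to Astrocytes_1 for *Fmr1* (without WT 3) and to ganglionic cells for *Fxr1* (without WT 3 or *Fmr1*-KO 2) and *Fxr2* (without WT 2 or *Fmr1*-KO 2). Levels with doublets kept were not run, because doublets carry no subtype. Depth limits *Fmr1* most in pericytes, oligodendrocytes, microglia and endothelial cells of *Fmr1*-KO mice, which had 0 to 10 UMIs per mouse.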

Other observations

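In the small immune subtypes, which had fewer than 10 cells in most mice and were not compared, the CYFIP genes had few UMIs. The Ms4a7_high cells, named by the authors next to microglia, had 35 *Cyfip1* UMIs in 42 WT cells, or 336 CPM (exact 95% Poisson interval 234 to 467, counting error only), and 0 *Cyfip2* UMIs. T cells had 0 *Cyfip1* and 9 *Cyfip2* UMIs in 10 WT cells, or 407 CPM of *Cyfip2* (186 to 773), and 0 and 3 UMIs in 6 *Fmr1*-KO cells. Border macrophages had 2 *Cyfip2* UMIs in 6 WT cells and 8 in 6 *Fmr1*-KO cells, or 164 CPM (19.8 to 591) and 686 CPM (296 to 1351), intervals that overlap.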
